A study of Rattus norvegicus with 30 samples.

Results

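The SS vs. YSS comparison addressed how the hippocampal transcriptome of METH-trained rats that reduced their lever pressing under punishment differed from that of saline rats shocked along with them. Its members were the 11 libraries whose titles carry the group names SS (n = 6) or YSS (n = 5), of 30 libraries in all. The SS rats were adult male Sprague Dawley rats, labelled wild type, that self-administered METH for 21 days. They went on self-administering METH during 8 further days with contingent foot-shocks. The YSS rats were of the same strain, sex and age class, self-administered saline in place of METH, and received a shock whenever the SS rat to which they were connected received one. The groups therefore shared the surgery and the lever training, and connected rats received the same number of shocks. They differed in METH and in what led to a shock, which was the rat's own lever press only in SS rats. They also differed in how they were formed, since SS rats were selected from all METH-trained rats by their behavior while YSS rats were assigned. These differences cannot be told apart here. Of the other groups, used here for reference only, SR rats (n = 7) took METH and kept pressing despite the shocks, YSR rats (n = 5) took saline and were shocked along with SR rats, and CT rats (n = 7) took saline and received no shocks. Each library is mRNA-seq of 1 rat, and the labels do not say which yoked rat belonged to which METH rat, so that the comparison was made without pairs.

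METH enters monoamine nerve terminals and releases dopamine, noradrenaline and serotonin. The hippocampus, which forms memories of places and contexts, receives such terminals and connects the cues around drug taking with reward or punishment. Bulk RNA-seq of this tissue mixes neurons, glia, blood vessels and, where they are attached, meninges and choroid plexus, so that fewer cells of a type and less RNA per cell cannot be told apart. The sample records name the dorsal striatum as tissue but the hippocampus in their protocol. They give 2 h before tissue collection, as does the abstract of the study, where its methods describe immediate collection. The deposited tables list 32552 Ensembl identifiers without symbols and 0 could be matched to a symbol, so marker genes of either region and the gene lists made for this tissue were not analysed here. Genes are therefore given by identifier or by position. The build is not named in the sources used here, and the contig names in the tables are those of the rat assembly Rnor_6.0.

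The libraries of the comparison held between 16202659 and 19110830 counts in SS rats and between 17155083 and 19181886 in YSS rats, so that 3 counts, taken as the detection floor for counting error only, corresponded to 0.156 to 0.185 CPM (counts scaled to the size of the library). Neither the total count, the number of genes with a count, the shares on the mitochondrial, X and Y chromosomes, the share of the 10 most counted genes nor the mean deviation of the longest genes separated the groups (7 exact two-sided permutation tests, p between 0.294 and 0.838, adjusted p = 0.838 in all 7). The mitochondrial share was 7.79% ± 0.763 (SD, n = 6) in SS rats and 7.93% ± 0.233 (SD, n = 5) in YSS rats. Every pair of libraries within a group differed by more than sampling noise, with a chi-square per degree of freedom of 5.03 to 26.1 over 12043 genes where noise alone gives 1. The cohort code in the titles was XIII in 4 SS and 4 YSS rats and XII in 2 SS rats and 1 YSS rat. YSS XIII-L06 and SS XII-L03 each stood apart in a block of genes described at the end, and results that rest on them are given with and without them.

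No gene separated the groups after adjustment for the number of genes tested. After Benjamini-Hochberg adjustment 0 of 15797 genes passed in edgeR's quasi-likelihood test, and the smallest adjusted p-value was 0.412. DESeq2 also gave 0, with a smallest adjusted p-value of 0.0795. At an unadjusted p-value under 0.05 there were 675 genes, or 4.27% of those tested, of which 364 (2.3%) were higher and 311 (1.97%) lower in SS than in YSS rats. An average of 5%, or 790 genes, would pass without any difference between groups. Of these, 75 genes (0.475% of those tested) also reached 1.7-fold, 32 of them higher and 43 lower. Without YSS XIII-L06 and SS XII-L03, 876 of 15864 genes tested passed the unadjusted threshold, which is more than 5%. Of these, 115 also reached 1.7-fold, with 62 of the 115 higher.

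The size of the differences followed the level of the genes. Among the 10106 genes with a mean above 10 CPM, none of those that passed reached 1.7-fold. Among genes that passed, the largest log2 fold change in either direction was 0.56 at 10 to 30 CPM, 0.48 at 30 to 100 CPM and 0.48 above 100 CPM. Of the 75 genes at 1.7-fold, 58 lay under 1 CPM, where the median standard error of the log2 fold change was 0.36, against 0.05 above 100 CPM. For 13770 genes, or 87.2%, the 95% interval of the difference lay wholly within 1.7-fold in both directions, so that for these a change of that size was not among the values the interval covered. Under 1 CPM this held for 17.7% of genes, and for the others at this level the interval did not exclude a 1.7-fold difference.

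**Figure D1:**
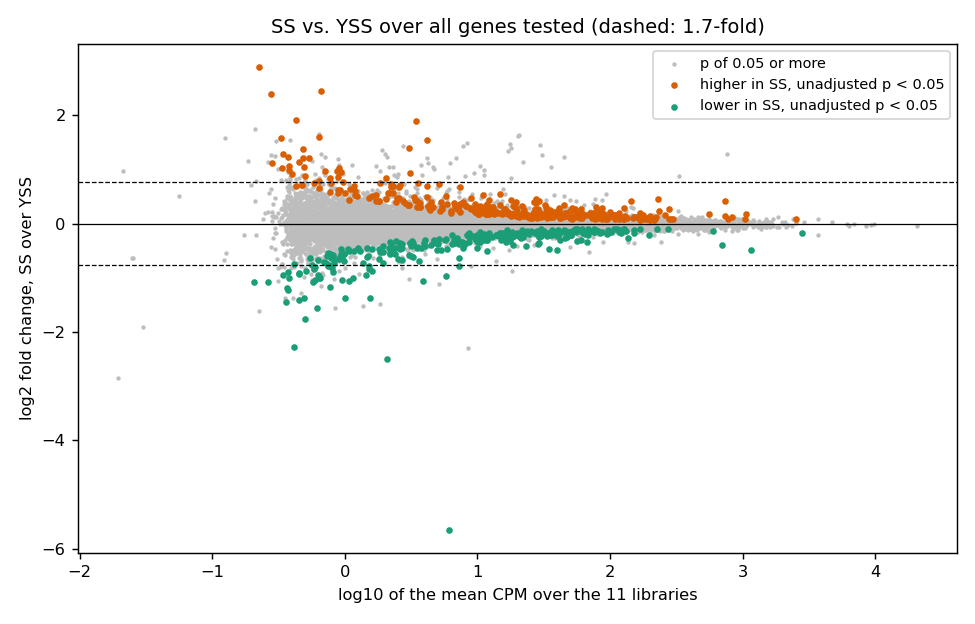
Log2 fold change of SS over YSS (vertical axis) against the log10 of the mean CPM over the 11 libraries (horizontal axis) for each gene tested, apart from 3 without a count in these libraries. Orange and green points are the 364 higher and 311 lower genes at an unadjusted p-value under 0.05, and outside the dashed lines at 1.7-fold these lie almost wholly at the low levels on the left.

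In 53 genes (0.336%) the SS and YSS libraries did not overlap. In 32 of them (0.203%) every SS library was above every YSS library, and 24 of these passed the unadjusted threshold. In the other 21 (0.133%) every SS library was below, and 13 of these passed. With group labels placed at random, a gene has a chance of 0.00216 of separating the groups in a given direction. Neither 0.203% nor 0.133% was above that chance, so the number of such genes gives no sign of a difference between the groups. The share of genes that passed lay between 2.86% on chromosome 18 and 5.26% on chromosome 15 among the autosomes and chromosome X, and their median log2 fold changes lay between -0.0013 and 0.0227. By exon structure it was 4.26% of 1033 genes with 1 exon block and 3.82% of 2174 genes with over 20, both near the 4.27% of all genes. Genes over 600 kb, many of which in the brain encode proteins of axons and synapses, stood at 5 of 68 (7.35%). Of the 5, 4 were higher, and the lower one was ENSRNOG00000034190, described below. The median log2 fold change of the 68 was 0.05, with 46 positive values.

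The smallest p-value among higher genes was that of ENSRNOG00000042213, which lies on the minus strand of chromosome 12 (chr12:11774788-11785493) and has 6 exon blocks. Its levels in SS rats had a lowest value of 10.7, a median of 11.5 and a highest value of 12.4 CPM. In the YSS rats they were 9.75, 9.38, 7.98, 9.15 and 9.63 CPM. The groups did not overlap, with 189 to 223 counts behind the SS values and 148 to 184 behind the YSS values. This corresponded to a log2 fold change of 0.34 with a standard error of 0.07 (unadjusted p = 4.18e-05, adjusted p = 0.412, edgeR). The difference was 0.37 on the log2 CPM scale within cohort XIII and 0.22 within cohort XII. It lay between 0.29 and 0.36 when any 1 of the 11 libraries was left out. The same gene showed no such difference in SR vs. YSR (log2 fold change 0.02, standard error 0.07), and the difference between the contrasts, SR vs. YSR minus SS vs. YSS, was -0.32 with a standard error of 0.10 (unadjusted p = 0.00291, adjusted p = 0.836). CT, SR and YSR rats had medians of 10.1, 10.1 and 10.03 CPM, between the SS median and the YSS median of 9.38 CPM.

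ENSRNOG00000059469 followed, on the minus strand of chromosome 14 (chr14:106861676-106864892) with 5 exon blocks. Its lowest, median and highest levels in SS rats were 2.48, 3.02 and 4.06 CPM. The YSS rats had 2.09, 2.16, 1.83, 1.88 and 1.67 CPM, so that every SS rat was above every YSS rat. Its log2 fold change was 0.72 with a standard error of 0.16 (unadjusted p = 0.000103, adjusted p = 0.412, edgeR), and leaving out any 1 of the 11 libraries gave 0.64 to 0.78. It was 0.54 within cohort XIII and 1.03 within cohort XII on the log2 CPM scale. In SR vs. YSR the log2 fold change was 0.25 with a standard error of 0.15 (unadjusted p = 0.118). The YSS rats were also the lowest of the 5 groups, with a median of 1.88 CPM against 2.49 in CT, 2.74 in SR and 2.59 in YSR rats.

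Of the 2 lower genes with the smallest p-values, the first rested on 1 yoked rat, and the second owed much of its size to the same rat. ENSRNOG00000049829, on the plus strand of chromosome 4 (chr4:98337367-98523473), had a lowest level of 0.105, a median of 0.2001 and a highest level of 0.686 CPM in SS rats. In the YSS rats it had 0.348, 0.0569, 64.9, 0.455 and 0.314 CPM, the third value being that of YSS XIII-L06. Apart from that library, with 1204 counts, the groups overlapped. The log2 fold change was -5.65 with a standard error of 1.21 (unadjusted p = 5.49e-05, adjusted p = 0.412, edgeR), and without YSS XIII-L06 it was -0.18 (unadjusted p = 0.850). The second was ENSRNOG00000034190, on the minus strand of chromosome 6 (chr6:138054662-138662511), which has 36 exon blocks and overlaps 12 other listed genes, so that reads may be split among them. Its lowest, median and highest SS levels were 0.358, 0.567 and 1.31 CPM, and its YSS levels were 1.74, 1.08, 14.02, 1.48 and 0.628 CPM. The log2 fold change of -2.49 (standard error 0.56, unadjusted p = 0.000104, adjusted p = 0.412, edgeR) became -0.87 without YSS XIII-L06 (unadjusted p = 0.0341).

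**Figure D2:**
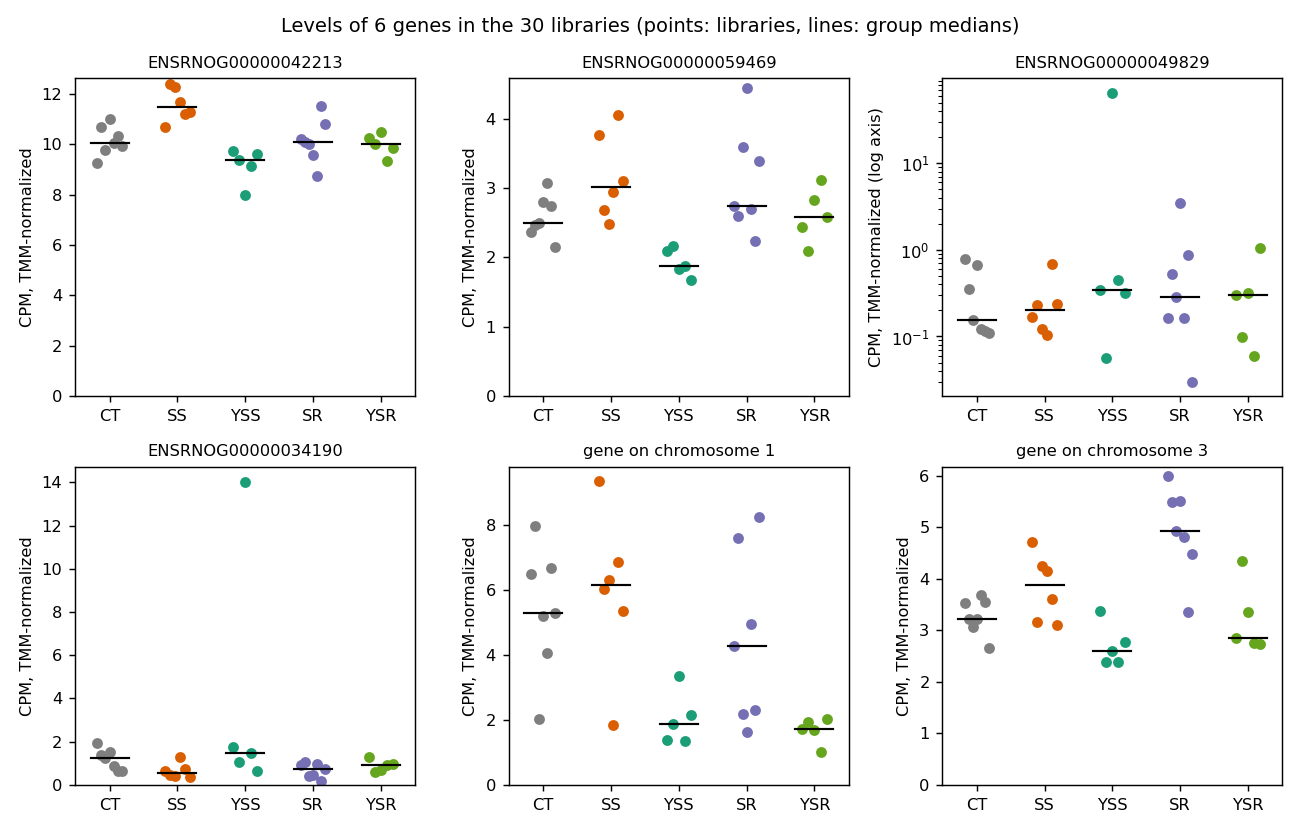
CPM of the 4 genes named by identifier and of 2 genes on chromosomes 1 and 3, by group, with 1 point per library and a line at the group median. The third panel has a log axis, on which the SR library with no count is drawn at the bottom. The SS and YSS points do not overlap in the first 2 panels, and YSS XIII-L06 alone is at 64.9 and 14.02 CPM in the next 2.

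The 12 higher and 12 lower genes with the smallest p-values among those with a mean of at least 1 CPM were spread over 9 chromosomes each. The higher ones had log2 fold changes of 0.14 to 1.55 (median 0.31) at mean levels of 2.61 to 168.0 CPM. All 12 were higher in SS rats within cohort XIII and within cohort XII, and in 6 the groups did not overlap. The lower ones had log2 fold changes of -5.65 to -0.20 (median -0.69) at 1.47 to 47.6 CPM. All 12 were lower within cohort XIII, 9 within cohort XII, and in 1 the groups did not overlap. Since the cohorts entered the choice of these genes, their direction within cohorts is a description. Genes that passed in cohort XIII alone (472 higher and 542 lower of those listed in both fits) were in the same direction in cohort XII in 45.6% of cases, beside 48.4% of all genes, where cohort XII holds 1 YSS rat.

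SR vs. YSR also compares METH with yoked saline, in METH-trained rats that kept pressing under punishment, and shares no library with SS vs. YSS. The paper reports that SR rats took more METH than SS rats in the shock phase. It also reports more shocks in SR and YSR rats than in SS and YSS rats. Cohort XII supplied 4 of the 7 SR and 3 of the 5 YSR rats, so that the contrasts differ in more than the phenotype. There 1291 genes (8.17%) passed the unadjusted threshold, and 4 also passed after adjustment in edgeR (smallest adjusted p = 0.0159). Passing in both contrasts with the same direction were 41 genes (0.26%), of which 32 were higher and 9 lower in METH rats, and 23 passed with opposite directions. The 41 made up 6.07% of the SS vs. YSS list and 3.18% of the SR vs. YSR list. Of the 364 genes higher in SS rats, 63.2% had a positive log2 fold change in SR vs. YSR, beside 50.4% of all genes, and of the 311 lower ones 46.0% had one. Across all 15797 genes, which are not independent, Pearson's r between the log2 fold changes was 0.14 and Spearman's rho was 0.08. The test of the difference between both contrasts gave 857 genes (5.43%) at an unadjusted p-value under 0.05 and 0 after adjustment (smallest adjusted p = 0.587, edgeR; 0 in DESeq2, smallest 0.174).

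**Figure D3:**
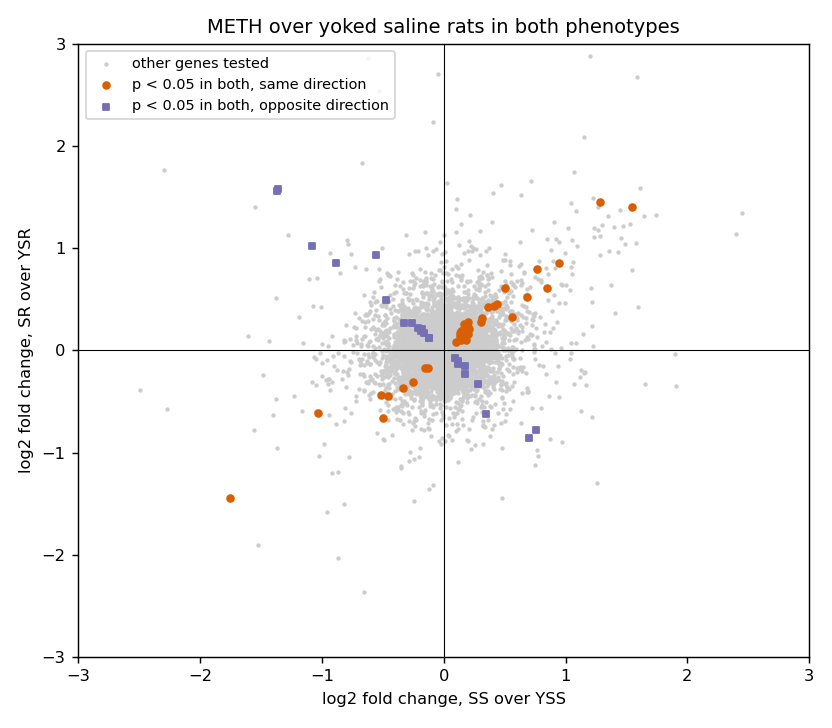
Log2 fold change of SS over YSS (horizontal axis) against that of SR over YSR (vertical axis), with 11 genes outside the axes. The 41 orange points passed the unadjusted threshold in both with the same direction and the 23 purple squares with opposite directions, and a group of grey points at about 1 to 1.6 on both axes did not pass in both.

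The following genes were chosen after their values were seen, as those with the smallest p-values in both contrasts. A gene with 17 exon blocks on the plus strand of chromosome 1 (chr1:105284753-105336363) had a lowest level of 1.83, a median of 6.16 and a highest level of 9.37 CPM in SS rats. The YSS rats had 1.39, 1.88, 3.34, 1.36 and 2.15 CPM. All SS rats but XIII-R03 were above every YSS rat. The log2 fold change was 1.55 with a standard error of 0.39 (unadjusted p = 0.000372, adjusted p = 0.995, edgeR), and it was 1.40 with a standard error of 0.39 in SR vs. YSR (unadjusted p = 0.00119, adjusted p = 0.251). Both yoked groups stood below the CT rats, whose median was 5.29 CPM against 1.88 in YSS and 1.73 in YSR rats, and the log2 fold change of YSS over CT was -1.40 (adjusted p = 0.502) while that of SS over CT was 0.15 (adjusted p = 0.997). The SR rats were spread from 1.63 to 8.25 CPM, and 3 of 7 lay below the highest YSS rat.

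A gene with 4 exon blocks on chromosome 3 (chr3:83052724-83134363) had SS levels between 3.10 and 4.71 CPM (median 3.87). Its YSS levels were 3.37, 2.39, 2.59, 2.39 and 2.77 CPM, of which only the first reached into the SS range. The log2 fold change was 0.50 (standard error 0.15, unadjusted p = 0.00212), beside 0.61 (standard error 0.14) in SR vs. YSR, where the adjusted p-value was 0.130. Of the lower genes, one with 26 exon blocks on chromosome 8 (chr8:39892792-39907478) had a log2 fold change of -0.46 (standard error 0.17) in SS vs. YSS and -0.45 (standard error 0.16) in SR vs. YSR. Its SS rats had 20.1 to 38.0 CPM (median 31.8) and its YSS rats 43.2, 37.2, 38.9, 51.4 and 33.0 CPM. A gene on chromosome 15 (chr15:41549331-41595345) was below every YSS rat in every SS rat, with 0.234 to 0.998 CPM (median 0.671) against 1.22, 1.88, 1.08, 1.25 and 1.15 CPM. Here the log2 fold change was -1.03 (standard error 0.27, unadjusted p = 0.000604, adjusted p = 0.995, edgeR), and in SR vs. YSR it was -0.61 (standard error 0.25).

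A larger group of genes stood higher in METH rats than in yoked saline rats by fold change alone, and few of them passed. Of 48 genes with a mean of at least 1 CPM that were at least 1.7-fold higher in SS than in YSS rats, whatever their p-value, 30 (62.5%) were also at least 1.7-fold higher in SR than in YSR rats. In the lower direction this held for 3 of 22 (13.6%). The 30 genes lay on 15 chromosomes and had log2 fold changes of 0.88 to 1.64 (median 1.23) in SS vs. YSS and a median of 1.11 in SR vs. YSR. Of them, 2 passed the unadjusted threshold in SS vs. YSS and 5 in SR vs. YSR. Their median standard error was 0.85, against 0.08 for all genes with a mean of at least 1 CPM. This set was chosen on these values, which are given without a test. The share of all genes at this fold in SR vs. YSR is not given here, so nothing is read from the 62.5%. As most of the 30 varied together, they are not 30 separate cases of agreement.

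The 30 genes varied together from rat to rat. Across the 30 libraries, which include the groups used to choose them, 27 had a correlation over 0.7 with the mean log2 CPM of the other genes of the set (median r = 0.97). The gene on chromosome 1 was among the 3 that did not, with r = 0.45. The geometric mean of the set was lowest in SS XIII-L05 and highest in SS XIII-L03, at 1.40 and 23.0 CPM, with a median of 11.5 CPM over SS rats. In YSS rats it was 3.85, 6.398, 8.77, 1.36 and 7.42 CPM. The YSS rats thus lay within the range of the SS rats apart from XIII-R04. CT rats, which took no METH, covered 1.74 to 17.3 CPM, with a median of 6.37 CPM beside 6.398 CPM in YSS rats. SR rats covered 1.71 to 27.1 CPM and YSR rats 1.30 to 19.3 CPM, with medians of 15.7 and 2.01 CPM. The highest YSS rat, at 8.77 CPM, was below the SS and SR medians, while the other 4 groups each held a rat at 17.3 CPM or more.

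The member with the highest level, a gene with 4 exon blocks on chromosome 18 (chr18:15532963-15540177), had a lowest level of 15.4, a median of 1007 and a highest level of 2218 CPM in SS rats. Its YSS levels were 262.4, 533.7, 778.5, 20.9 and 561.3 CPM. With this spread the log2 fold change was 1.28 with a standard error of 1.19 (unadjusted p = 0.289, edgeR). The next, a gene with 34 exon blocks on chromosome 7 (chr7:94480396-94563001), had 421.0 ± 288.7 CPM (SD, n = 6) in SS and 228.1 ± 85.7 CPM (SD, n = 5) in YSS rats (log2 fold change 0.88, standard error 0.59, unadjusted p = 0.145). SS XIII-L05 and YSS XIII-R04, the lowest libraries in the set, also had the highest scores on the first principal component of the 11 libraries, 35.1 and 23.3, while the other 9 lay between -23.5 and 3.66. This component held 19.2% of the variance and did not separate the groups (exact two-sided permutation test, p = 0.626). The cell types behind these genes were not tested, since no marker could be matched.

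**Figure D4:**
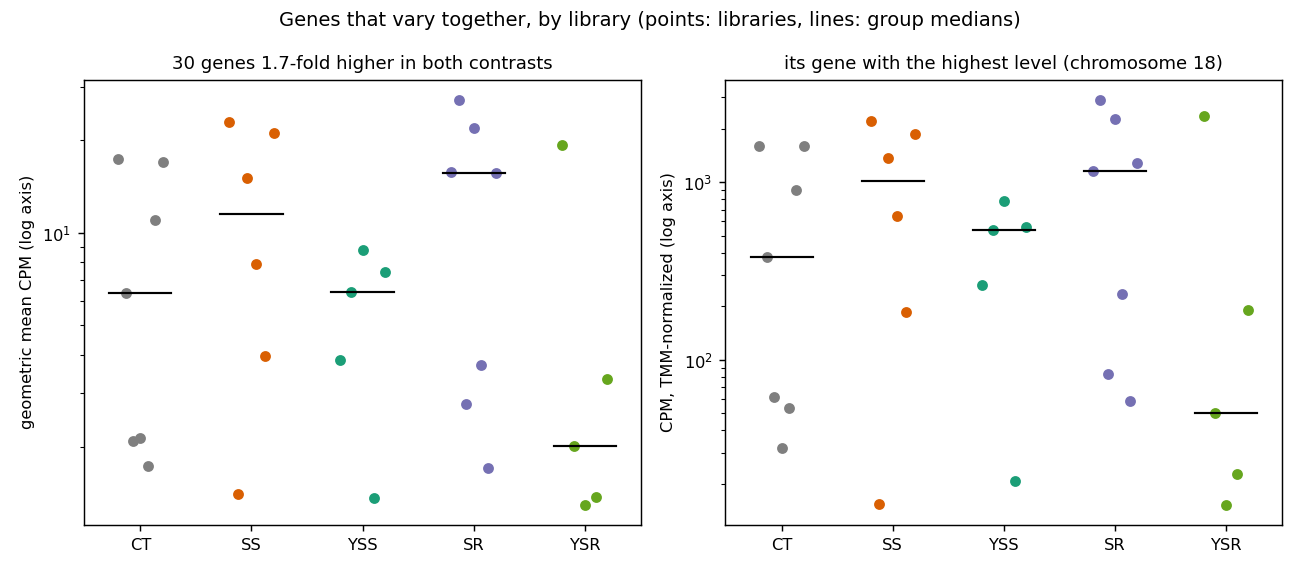
Geometric mean CPM of the 30 genes (left) and CPM of their gene with the highest level (right) in the 30 libraries, on log axes, with lines at the group medians. The SS rats and the YSS rats keep the same order in both panels, with SS rats from 1.40 to 23.0 CPM and YSS rats from 1.36 to 8.77 CPM on the left.

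The mitochondrial genome encodes subunits of the respiratory chain, ribosomal RNAs and transfer RNAs. Of 35 listed features 29 were tested. None of the 13 features over 200 bases passed, and their log2 fold changes lay between -0.04 and 0.04 with standard errors of 0.08 to 0.13. Of the 16 shorter ones 13 had negative log2 fold changes, where the median of all genes tested was 0.005. Of the 16, 2 passed, both lower in SS rats, beside 1.97% of all genes that passed as lower. The feature at MT:2665-2739 had SS levels of 14.4 to 18.6 CPM (median 16.2) and YSS levels of 20.3, 27.2, 20.4, 20.7 and 17.6 CPM. Only YSS XII-R04 reached into the SS range, and the log2 fold change was -0.38 with a standard error of 0.12 (unadjusted p = 0.00257, adjusted p = 0.995, edgeR). The difference was -0.50 on the log2 CPM scale within cohort XIII and 0.01 within cohort XII. The feature at MT:15280-15346 had 0.343 to 0.895 CPM in SS rats and 0.863 to 1.36 CPM in YSS rats, with a log2 fold change of -0.64 (standard error 0.22, unadjusted p = 0.00574). It rested on 6 to 24 counts per library, and in a fit of cohort XIII alone it was -0.52 (unadjusted p = 0.0601, edgeR). In SR vs. YSR the log2 fold changes of the 2 features were -0.15 and 0.14, with standard errors of 0.11 and 0.21.

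The first 5 Mb of chromosome 20 hold the rat major histocompatibility complex, whose class I and class II molecules present peptides to T cells. In the RefSeq table of the later assembly GRCr8, all 67 symbols that begin with RT1-, the rat name of this complex, are on chromosome 20. In this interval 7 of 118 genes tested (5.93%) passed, 6 of them higher in SS rats, beside 4.27% of all genes, and 0 had an adjusted p-value under 0.05 in edgeR. The gene at chr20:2194709-2201668 had 2.34 to 3.21 CPM (median 2.91) in SS rats and 2.09, 1.65, 2.43, 2.501 and 1.52 CPM in YSS rats. This gave a log2 fold change of 0.47 (standard error 0.17, unadjusted p = 0.0111). The groups overlapped only between 2.34 and 2.501 CPM. Single rats set the values of others. The gene at chr20:4039413-4049711 had 0.643 to 1.497 CPM in 5 SS rats and 25.2 CPM in SS XII-L03, against 2.44, 0.682, 2.59, 0.512 and 0.680 CPM in YSS rats. Its log2 fold change of 1.89 became -0.28 without SS XII-L03. The gene at chr20:2704148-2707120 had 6.76 CPM in SS XIII-R03 and 1.09 to 3.16 CPM in the other SS rats, and its log2 fold change of 0.74 became 0.22 without that rat.

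A search was made in each library for genes with at least 20 counts and over 3 times the level of the highest of the other 10 libraries, after 0.2 CPM was added to both. It found 19 genes in YSS XIII-L06, 11 in SS XII-L03 and 0 to 3 in each of the other 9 libraries. The 19 genes of YSS XIII-L06 had their highest level of all 30 libraries in that rat. Of them, 7 lay on chromosome 3 between 16413080 and 18707278, 6 on chromosome 6 between 138054662 and 142903440, 2 each on chromosomes 2 and 11, and 1 each on chromosomes 4 and 14. They include both lower genes named by identifier. In 9 of the 19 the other 10 libraries had no count, and 12 had 1 or 2 exon blocks and under 500 exon bases. Summed, they made 162.9 CPM in YSS XIII-L06 and 1.44 to 4.09 CPM in the other 10 libraries. The highest of the remaining series was SR XII-L05 with 10.6 CPM. Only 4 of the 19 were tested, and 3 of these passed as lower in SS rats, beside 1.97% of all genes. Since the 19 were chosen for their level in a YSS rat, nothing is read from that count. As background, the V segments of immunoglobulins and T cell receptors, short units from which antigen receptors are assembled in lymphocytes, are in the RefSeq table of GRCr8 on chromosomes 4 (161 segments), 6 (146), 11 (4) and 15 (180). Of the chromosomes of the block, 4, 6 and 11 are among these, while 2, 3 and 14 are not, and the block has no gene on chromosome 15. The same table places Jchain, the gene of the immunoglobulin joining chain, on chromosome 14. Positions were not compared between the assemblies. No identifier of the block could be matched to that table, and which genes they are was not tested.

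The 11 genes of SS XII-L03 summed to 278.7 CPM in that rat and to 12.2 to 48.0 CPM in the other 10 libraries. Of them, 4 were neighbors on chromosome 20 between 4039413 and 4132616, with 113.6 CPM against 4.97 to 20.5 CPM. CT XIII-L12 had the next highest sums of the series, 101.3 CPM over the 11 genes and 34.8 CPM over the 4. Of the 11 genes 8 were tested and 1 passed as higher in SS rats, beside 2.3% of all genes, and here too the choice was made on the level in an SS rat. SS XIII-L07 stood apart in 2 genes that were almost absent elsewhere, one on chromosome 10 (chr10:94486205-94488180) with 37.7 CPM against at most 0.171 CPM in the other 10 libraries and one on chromosome 17 (chr17:39814244-39824299) with 12.1 CPM against no count. Neither was tested, since the filter on low counts removed them.

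**Figure D5:**
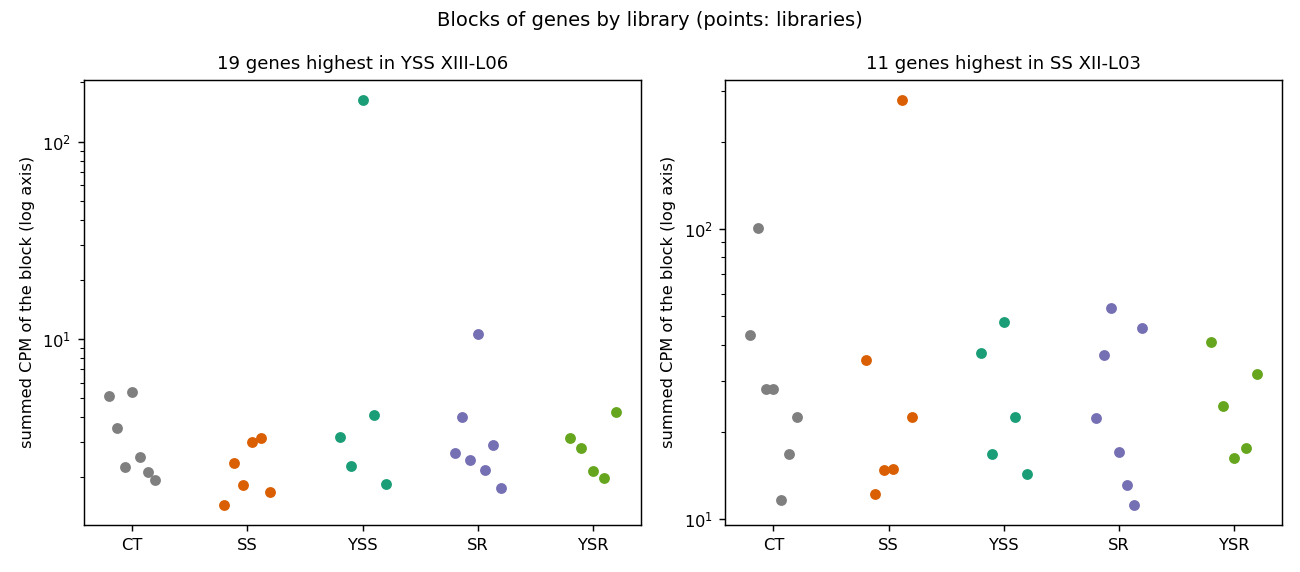
Summed CPM (log axis) of the 19 genes that stood apart in YSS XIII-L06 (left) and of the 11 that stood apart in SS XII-L03 (right), with 1 point per library of the 5 groups. The highest points are 162.9 CPM in a YSS rat and 278.7 CPM in an SS rat, and the other 10 libraries of the comparison reach 4.09 and 48.0 CPM.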

How the data were processed

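The authors prepared poly(A)-selected libraries and sequenced them as paired reads. The submitters' processing notes name bcl2fastq 2.17, Trimmomatic 0.36, STAR 2.5.2b and featureCounts of Subread 1.5.2. The deposited tables hold raw counts per Ensembl gene for each of 30 rats, without normalization, and the genome build, annotation release and strand setting are not given in the sources used here, so that overlapping and antisense genes may share reads. The tables have no symbols, and the RefSeq table (47357 genes) carries no Ensembl identifier, so 0 of 32552 identifiers matched.

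Counts of all 30 libraries were fitted with edgeR 4.0.16 in R 4.3.3 (quasi-likelihood test, TMM, default filter, group as the only factor), and SS vs. YSS was taken as a contrast, with Benjamini-Hochberg adjustment over 15797 genes. P-values are two-sided. CPM are TMM-normalized, and log2 CPM used a prior count of 2. Single values per library were compared by exact permutation over 462 arrangements, whose smallest p is 0.00216. Identifiers were named by the smallest p-value, at most 2 per direction, because no symbol could be had, and genes given by position were chosen after their values were seen. The comparison and the lists were chosen with earlier results of these data known. Code was tested on simulated data. Alternatives were DESeq2 1.42.0, other size factors, filters, covariates, fold criteria, sets of libraries and Tukey's test.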

Additional observations from a re-analysis of the deposited data

Results flagged for a closer look

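In 48 groups of values (7 measures per library and 17 genes, in SS and in YSS rats) the highest and lowest rat were set against the gap to the nearest other rat, and 6 held a rat far from the rest, each time the highest, where chance gives about 1 in 20, or 2.4. YSS XIII-L06 was far above the other YSS rats in ENSRNOG00000049829 (64.9 CPM, next 0.455 CPM) and in ENSRNOG00000034190 (14.02 CPM, next 1.74 CPM). SS XII-L03 was far above the other SS rats in the gene at chr20:4039413-4049711 (25.2 CPM, next 1.497 CPM). It was also flagged in ENSRNOG00000049829 (0.686 CPM, next 0.239 CPM), but there on 12 counts against 4, near the detection floor of 3 counts. SS XIII-R03 was the highest SS rat in the gene at chr20:2704148-2707120 (6.76 CPM, next 3.16 CPM), and YSS XIII-L04 the highest YSS rat in the gene at chr15:41549331-41595345 (1.88 CPM, next 1.25 CPM). Several of these genes were chosen for their p-values, so the flags are not independent of that choice. The difference between SS vs. YSS and SR vs. YSR passed after adjustment in 0 genes in edgeR, beside 857 at an unadjusted p-value under 0.05 and 0 in DESeq2.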

How the results depend on the processing

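The number of genes at an adjusted p-value under 0.05 was 0 in SS vs. YSS, and 0 for the difference between both contrasts, under each alternative run. At an unadjusted p-value under 0.05 the 675 genes became 1169 when every gene with 1 or more counts was kept (25802 tested), 1034 in cohort XIII alone and 78 with Tukey's test. With 1.7-fold as well, the 75 genes became 591 under the same filter, 9 with at least 10 counts in every library (13896 tested), 48 in a fit of the 11 libraries, 149 in cohort XIII alone, 115 without YSS XIII-L06 and SS XII-L03, 122 at 1.5-fold and 43 at 2-fold. Leaving out 1 of the 11 libraries gave 529 to 811 genes and 75 to 112 genes, and of the 675 genes between 403 and 534 still passed. DESeq2 called 666, of which 627 were among the 675. Of 349 values of 17 genes, 347 kept their direction and 0 had an adjusted p-value under 0.05. All 17 genes were at an unadjusted p under 0.05 as reported, but 40 of the values, from 9 genes, were at 0.05 or more, and DESeq2 gave no p for ENSRNOG00000049829, whose p was 0.850 without YSS XIII-L06. The log2 fold change of the gene at chr20:4039413-4049711 lay between -0.28 (without SS XII-L03) and 2.26 when 1 library was left out, and was -0.49 in cohort XIII. No paired analysis was possible because the labels give the groups no shared replicate numbers. Cohort XII holds 1 YSS rat, so that no fit of it alone was made. Of the genes under 1 CPM, 17.7% had an interval within 1.7-fold. The fit without both libraries, the robust fit and the fits without 1 SR or YSR library were added after the data were examined.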
